A study of Homo sapiens with 2 samples.

Results

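A set of 10 long noncoding RNA (lncRNA) genes known from prostate cancer (PCa) was followed in RNA-Seq data of 2 untreated human lines, MDA PCa 2b on one side and RC77 T/E on the other. The genes were PCA3, PCAT1, PCGEM1, DRAIC, PCAT4, PART1, NEAT1, MALAT1, H19 and SCHLAP1. They were picked by name, and 9 of these 10 genes were matched to 1 locus each among the 21382 genes of the deposited table. DRAIC was not analysed here. Each cell line was sequenced as 1 library, so no value has a replicate error, no difference has a replicate check, and no test or p-value is given.

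MDA PCa 2b is an established line grown from a bone metastasis of PCa. RC77 T/E is an established line from a primary prostate tumour, immortalized with the E6 and E7 genes of a human papillomavirus. Neither was treated, but the media differed. MDA PCa 2b was kept in Ham's F-12 (Kaighn's modification) with serum (fetal bovine), a hormone and growth factor mix (insulin, hydrocortisone and mouse epidermal growth factor), selenite, phosphoethanolamine, cholera toxin and antibiotics (penicillin-streptomycin), and RC77 T/E in a serum-free keratinocyte medium to which epidermal growth factor and bovine pituitary extract were added. Cell line and medium therefore cannot be told apart. Expression was deposited as TPM, in which reads are divided by transcript length and then scaled so that every library has the same sum. TPM keeps no read counts, so the depth is unknown, and a gene at 0 TPM is only said to be listed at 0.

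The lines were checked against prostate markers. In the MDA PCa 2b library, 6 of 6 luminal markers analysed were at 1 TPM or more, among them KLK3, which encodes prostate-specific antigen, at 5323 TPM. In RC77 T/E, 2 of these 6 were at 1 TPM or more, and KLK3, KLK2 and HOXB13 were listed at 0. Of 6 basal markers, 6 reached 1 TPM in RC77 T/E, and 3 did so in MDA PCa 2b. The luminal keratin gene KRT18 was at 320 TPM in MDA PCa 2b against 325 TPM in RC77 T/E.

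lncRNAs are transcripts that act without being translated, and many are restricted to a tissue. PCA3, PCGEM1, PART1 and PCAT4 were found as transcripts of the prostate, PCAT1 and SCHLAP1 as transcripts raised in prostate tumours, and several of them respond to androgens. NEAT1 and MALAT1 are abundant nuclear RNAs of most tissues: NEAT1 is the scaffold of paraspeckles, and MALAT1 gathers in nuclear speckles with splicing factors. H19 is an imprinted, maternally expressed RNA of fetal tissues that shares its control region with the growth factor gene IGF2.

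Of the 9 lncRNAs, 6 reached 1 TPM in MDA PCa 2b (PCA3, SCHLAP1, PART1, PCAT1, NEAT1 and MALAT1) and 2 in RC77 T/E (NEAT1 and MALAT1). Among all 1434 lncRNA genes of the table, 16.5% reached that level in MDA PCa 2b against 16.8% in RC77 T/E, and among all genes 49.6% and 52.8%. The value was higher in MDA PCa 2b for 5 of the 9 and higher in RC77 T/E for 3, and PCAT4 was listed at 0 in both. PCGEM1, among the 5, was at 0.0676 TPM against 0, and H19, among the 3, was under 1 TPM in both lines. Of the 9, 4 were listed at 0 in RC77 T/E (PCA3, SCHLAP1, PCGEM1 and PCAT4) and 1 in MDA PCa 2b (PCAT4), beside 48.4% and 51.5% of all lncRNA genes and 26.8% and 27.0% of all genes.

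The deposited table writes many values of 1 TPM or more without their decimal mark. The mark was put back by requiring that the deposited mean of both lines and its standard error came out as listed. This fixed the values of 6 of the 9 lncRNAs. For PCA3, SCHLAP1 and NEAT1 several positions remained, and every value that can be read is given. The readings of each of these 3 genes differ by factors of 10, and all of them are above 1 TPM.

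**Figure D1:**
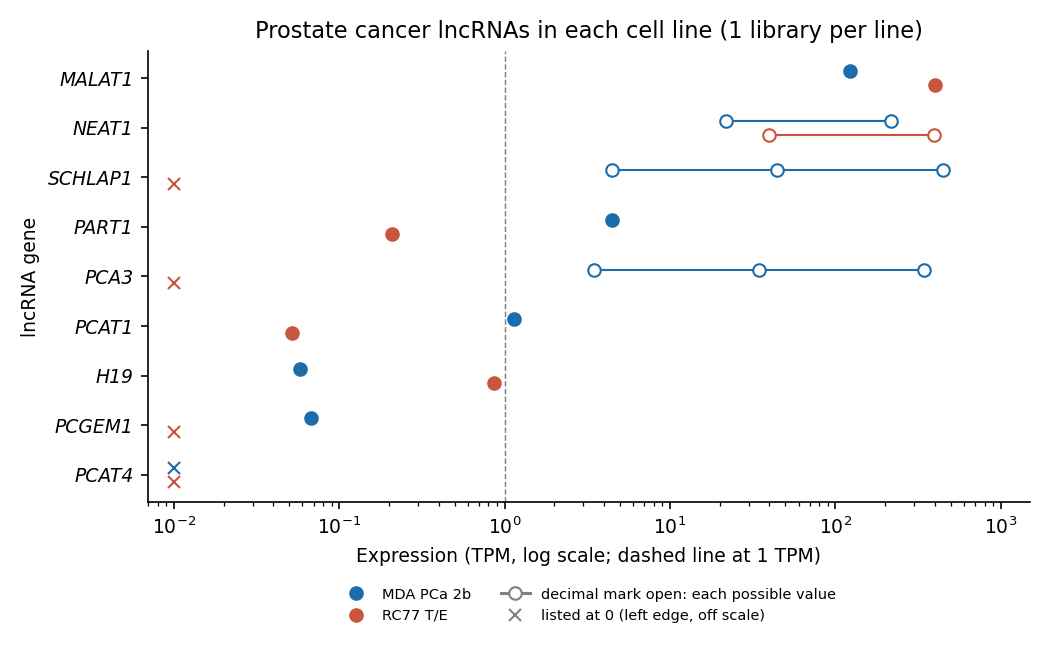
Expression in TPM (log scale) of the 9 lncRNAs in MDA PCa 2b (blue) next to RC77 T/E (red), 1 library each. Filled points are fixed values, open points joined by a line are the values possible where the decimal mark is open, crosses at the left edge mark genes listed at 0, and the dashed line is at 1 TPM. PCA3, SCHLAP1, PART1 and PCAT1 lie right of the dashed line in MDA PCa 2b only, while MALAT1 (123 and 404 TPM) and NEAT1 lie right of it in both.

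Lines were compared as the log2 ratio of RC77 T/E over MDA PCa 2b after adding 1 TPM to each value, which understates the change of low genes, and a gene was counted from a 2-fold difference upward. On this scale 4 of the 9 lncRNAs were higher in MDA PCa 2b (PCA3, SCHLAP1, PART1 and PCAT1) and 1 in RC77 T/E (MALAT1). Over the 264 lncRNA genes whose mean reached 1 TPM, 25.4% were at least 2-fold higher in MDA PCa 2b against 21.2% in RC77 T/E, and over all 11624 genes with such a mean 20.0% and 19.4%. Only 5 of the 9 lncRNAs reached that mean (PCAT1 was among those that did not), and PCA3, SCHLAP1 and PART1 did so through MDA PCa 2b alone. Neither the count among the 9 nor that among these 5 is therefore read against these shares. When any value above 0 TPM was enough for a gene to enter, 77 lncRNA genes were 2-fold or more higher in MDA PCa 2b. The opposite direction had 69. For all genes the counts were 2438 and 2426, in the same order. The median log2 ratio was -0.15 over the 11624 genes and -0.30 over the 264 lncRNA genes. The share of these genes with the higher value in each line was not counted, so such counts for the 9 lncRNAs and for the gene lists below are not read against it. Values called centred are relative to -0.15.

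**Figure D2:**
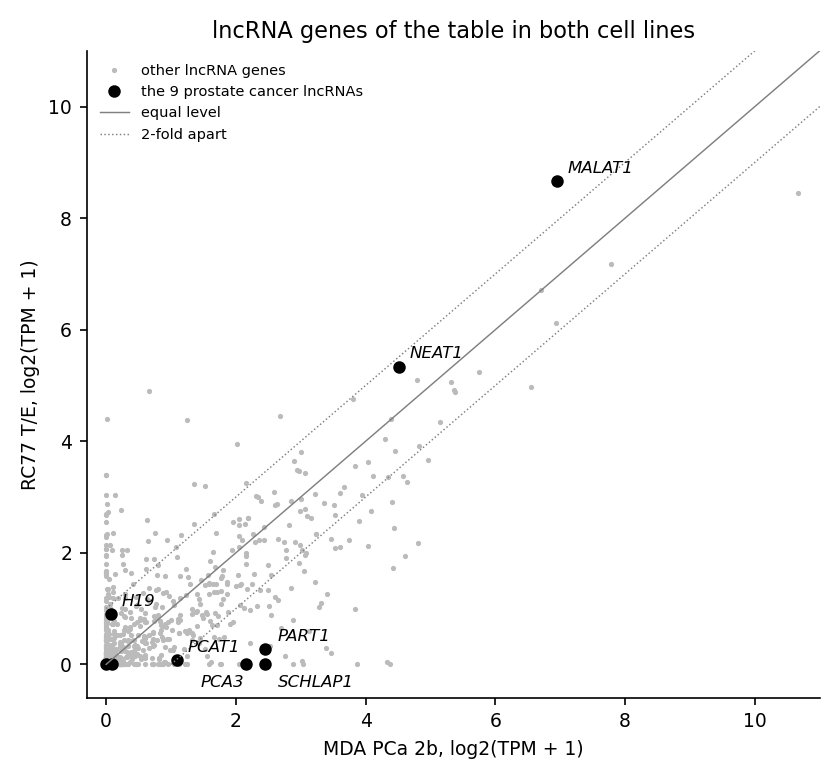
Level in RC77 T/E against MDA PCa 2b, both as log2(TPM + 1), for the 1434 lncRNA genes of the table with open decimal marks at their lowest position. Black points are the 9 prostate cancer lncRNAs, the solid line marks equal levels and the dotted lines a 2-fold difference. MALAT1 is above the upper dotted line, NEAT1 lies between the lines, and PCA3, SCHLAP1 and PART1 lie near the horizontal axis.

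PCA3 (ENSG00000225937) was among the genes seen in MDA PCa 2b alone. The transcript is measured in urine as a marker of PCa. Its deposited locus runs on GRCh38 chromosome 9 from 76691980 to 76863307 and lies, on the opposite strand, within PRUNE2, whose RNA it can pair with. PCA3 was at 3.45, 34.5 or 345 TPM in MDA PCa 2b, depending on the decimal mark, and was listed at 0 in RC77 T/E. PRUNE2 was at 37.4 TPM in MDA PCa 2b against 0.0427 TPM in RC77 T/E. The host gene and its antisense transcript thus had their higher value in the same line, and the ratio of MDA PCa 2b to RC77 T/E for PRUNE2 was 876. That ratio rests on a value near 0 in RC77 T/E, and the log2 ratio of PRUNE2 after adding 1 TPM was -5.20. GENCODE release 29 has 17 transcripts of PCA3, with exons that overlap exons of PRUNE2. The libraries kept the strand, but whether the TPM values use it is not given in the sources used here, and the part of shared reads in both values was not tested. GCNT1, the other gene within 100 kb, which encodes a mucin-type glycosyltransferase, was 2.34-fold higher in MDA PCa 2b.

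SCHLAP1 (ENSG00000281131, chromosome 2, 180692104 to 180916939) showed the same pattern as PCA3. SCHLAP1 marks aggressive PCa and is known to interfere with the chromatin remodelling complex SWI/SNF. It was at 4.46, 44.6 or 446 TPM in MDA PCa 2b but was listed at 0 in RC77 T/E. GENCODE has 1 transcript of 1436 bases for it, spread over 224836 bases of the chromosome. Exons of SCHLAP1 overlap those of an lncRNA gene on the opposite strand (AC009478.1), and the part of shared reads was not tested. The neighbour of SCHLAP1 at a distance of 50309 bases, UBE2E3, a ubiquitin-conjugating enzyme gene, was 2.47-fold higher in MDA PCa 2b. The SWI/SNF subunits were measured in both lines: 13 of 13 had a mean of at least 1 TPM, 10 were higher in MDA PCa 2b against 3 in RC77 T/E, and their median log2 ratio was -0.34 (centred, -0.19). The median over all 11624 genes with such a mean was also below 0, at -0.15, so that side is not particular to these subunits. SMARCB1, the subunit that SCHLAP1 is known to bind, was at 50.9 TPM in MDA PCa 2b against 40.2 TPM in RC77 T/E. The largest differences were in SMARCE1, at 76.3 and 21.5 TPM, and SMARCD2, 3.34 times as high in MDA PCa 2b, and in the opposite direction in SMARCD3, at 0.119 and 2.62 TPM, and SMARCA2, 1.54 times as high in RC77 T/E.

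PART1 (ENSG00000152931, chromosome 5, 60487713 to 60548813), an androgen-regulated prostate transcript, has a fixed decimal mark. It had 4.46 TPM in MDA PCa 2b against 0.210 TPM in RC77 T/E, 21.2 times as high in the former, with a log2 ratio of -2.17 (centred, -2.02). Only RC77 T/E fell under 1 TPM. Between 100 and 123 of the lncRNA genes were higher than PART1 in MDA PCa 2b, depending on their open decimal marks, and 433 were higher in RC77 T/E. PART1 overlaps PDE4D, a cAMP phosphodiesterase gene on the opposite strand, which was at 0.177 TPM in MDA PCa 2b against 0.630 TPM in RC77 T/E. The overlapping gene thus had its higher value in the other line, but it was under 1 TPM in both, with a log2 ratio of 0.47. Exons of PART1 and PDE4D overlap, and the part of shared reads in both values was not tested. DEPDC1B, at a distance of 48099 bases, was 3.46-fold higher in RC77 T/E.

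PCAT1 (ENSG00000253438) is known as a repressor of BRCA2 in PCa. It was at 1.14 TPM in MDA PCa 2b against 0.0521 TPM in RC77 T/E, a ratio of 21.8. The log2 ratio after adding 1 TPM was -1.02, just past the 2-fold limit, and -0.87 when centred, which is short of it. The deposited locus spans 862728 bases of chromosome 8, from 126556323 to 127419050. Of the loci in the table, 4 overlap it: POU5F1B, at 2.26 and 0.540 TPM, CASC8, at 1.80 and 0.782 TPM, CCAT2, at 0.296 and 0.0307 TPM, and PRNCR1, at 0.0855 and 0.00981 TPM, with MDA PCa 2b given before RC77 T/E. Each of these 4 had its higher value in MDA PCa 2b, as PCAT1 did. POU5F1B has exons that overlap those of PCAT1 on the same strand, so their reads cannot be separated by strand. In GENCODE, exons of PCAT1 also overlap those of a protein-coding gene on the opposite strand. The part of shared reads in the PCAT1 value was not tested.

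PCGEM1 and PCAT4 were at or near 0 in both lines. PCGEM1 (ENSG00000227418, chromosome 2, 192749845 to 192776899), an androgen-responsive prostate transcript, was at 0.0676 TPM in MDA PCa 2b but listed at 0 in RC77 T/E. No gene of the table lies within 100 kb of it. PCAT4 (ENSG00000251321, chromosome 4, 79827471 to 79877770) was listed at 0 in both libraries, while ANTXR2, a receptor gene at a distance of 23376 bases, was at 9.68 TPM in MDA PCa 2b against 66.7 TPM in RC77 T/E. With the depth unknown, no limit of detection can be given for these values near 0.

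Transcription factors of the prostate lineage were compared in the same libraries. Of 4 such genes (FOXA1, HOXB13, GRHL2 and GATA2), 4 were at least 2-fold higher in MDA PCa 2b. Their median log2 ratio was -3.62 (centred, -3.46), or -5.97 with open decimal marks at their highest position. Of the 11624 background genes, 20.0% were that much higher in this line. But HOXB13 and GATA2 reached the mean through MDA PCa 2b alone, so neither the count nor the median is read against the background. HOXB13 was also counted among the luminal markers above. FOXA1, a factor that opens chromatin, was at 194 TPM in MDA PCa 2b against 4.19 TPM in RC77 T/E, and GATA2 at 110.0 and 0.0596 TPM. GRHL2, a factor of epithelial cells, was 5.33-fold higher in MDA PCa 2b. PCA3, SCHLAP1, PART1 and PCAT1 had their higher value in the line where these 4 factors were higher, and with 2 lines no relation between them can be measured. PCGEM1, at 0.0676 TPM and 0, is too near 0 in both lines to be placed.

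NEAT1 and MALAT1 were the lncRNAs of the list that were present in both lines, and both were higher in RC77 T/E. They lie on chromosome 11, on the same strand, with 52147 bases between them. MALAT1 (ENSG00000251562, 65497688 to 65506516) reached 123 TPM in MDA PCa 2b against 404 TPM in RC77 T/E, values that the deposited table fixes. It was 3.28-fold higher in RC77 T/E, a log2 ratio of 1.71 (centred, 1.86). At most 12 of the lncRNA genes were higher than MALAT1 in RC77 T/E and at most 65 in MDA PCa 2b, and with the other marks at their lowest positions 0 and 2. Of the 264 lncRNA genes whose mean reached 1 TPM, 32 had a higher log2 ratio. In GENCODE, exons of MALAT1 overlap those of an lncRNA gene on the opposite strand (AP000769.2), and the part of shared reads was not tested.

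NEAT1 (ENSG00000245532, 65422774 to 65445540) had 21.8 TPM in MDA PCa 2b against 39.5 TPM in RC77 T/E, or at 218 and 395 TPM with the mark 1 place further right. In either reading it was 1.81-fold higher in RC77 T/E. The log2 ratio was 0.83 (centred, 0.98) in the lower reading and 0.86 (centred, 1.01) in the higher, so that only the centred value of the higher reading passed 2-fold. In the lower reading, 59 of the 264 lncRNA genes had a higher ratio. GENCODE lists 8 transcripts of NEAT1, from 512 to 22743 bases. The short and the long form share their start, paraspeckles need the long form, and the deposited value does not separate the forms. How the RNA was selected before sequencing (by poly(A) tail or by removal of ribosomal RNA) is not given in the sources used here. MALAT1 and the long NEAT1 form lack a usual poly(A) tail, and the part of that step in their levels was not tested.

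The genes around NEAT1 and MALAT1 did not share their direction. Of 7 other genes reported here within 100 kb of either with a mean of at least 1 TPM, 3 were higher in RC77 T/E (EHBP1L1, LTBP3 and FRMD8) and 4 in MDA PCa 2b (SLC25A45, FAM89B, DPF2 and MAP3K11). EHBP1L1, at 2.94 TPM in MDA PCa 2b against 31.8 TPM in RC77 T/E, and LTBP3, a TGF-beta binding protein gene 2.50 times as high in RC77 T/E, were at least 2-fold apart on the log2 scale. SLC25A45, a mitochondrial carrier gene, was at 7.86 and 0.421 TPM and thus past 2-fold in the other direction. FAM89B, with 2.28 times the TPM in MDA PCa 2b, was short of 2-fold on the log2 scale at its lowest decimal position and past it at its highest. FRMD8, the protein-coding gene nearest to NEAT1, was 1.52-fold higher in RC77 T/E.

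**Figure D3:**
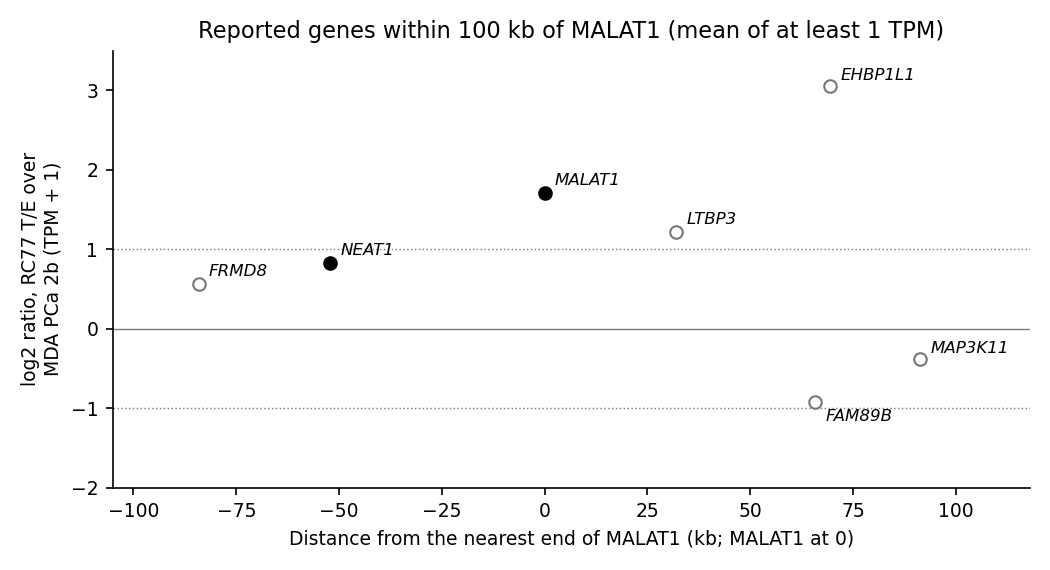
The log2 ratio of RC77 T/E over MDA PCa 2b (TPM + 1) of the reported genes within 100 kb of MALAT1 with a mean of at least 1 TPM, against their distance from its nearest end in kb. Filled points are MALAT1 (1.71) and NEAT1 (0.83), open points are protein-coding genes, and dotted lines mark a 2-fold difference. FAM89B and MAP3K11 lie below 0 and FRMD8, LTBP3 and EHBP1L1 above it.

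Proteins of the bodies in which these RNAs reside were compared beside them. Of 16 paraspeckle protein genes, 16 had a mean of at least 1 TPM, 12 were higher in MDA PCa 2b against 4 in RC77 T/E, with a median log2 ratio of -0.54 (centred, -0.39). SFPQ, needed for paraspeckle assembly, was at 112 TPM in MDA PCa 2b against 120 TPM in RC77 T/E, and its partner NONO at 169.5 and 97.8 TPM. RBM14 and PSPC1 were 2.32 and 2.18 times as high in MDA PCa 2b and past 2-fold on the log2 scale. TAF15, with 2.01 times the TPM in MDA PCa 2b, passed that limit only at its highest decimal position. HNRNPH3 was 1.30 times and NUDT21 1.21 times as high in RC77 T/E. The median of the paraspeckle genes and the value of NEAT1 lay on opposite sides of 0. The medians over all 11624 genes (-0.15) and over the 264 lncRNA genes (-0.30) were also below 0, so that side is not particular to the paraspeckle genes.

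Of 11 nuclear speckle protein genes, 8 were higher in MDA PCa 2b against 3 in RC77 T/E, with a median log2 ratio of -0.33 (centred, -0.18), beside 1.71 for MALAT1. The median over all 11624 genes was also below 0, at -0.15, so that side is not particular to the nuclear speckle genes. The splicing factor genes SRSF1 and SRSF7 were 2.25 and 1.94 times as high in MDA PCa 2b. SRRM1, at 20.1 and 37.6 TPM, and SRSF11, at 75.3 and 88.4 TPM, were higher in RC77 T/E. Before centring, none of the 11 was higher by 2-fold or more in RC77 T/E on the log2 scale. SRRM1, with a log2 ratio of 0.88, passes that limit when centred.

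H19 (ENSG00000130600, chromosome 11, 1995166 to 2001470, minus strand) was under 1 TPM in both lines. It was at 0.0578 TPM in MDA PCa 2b against 0.858 TPM in RC77 T/E, a ratio of 14.9, and its log2 ratio after adding 1 TPM was 0.81 (centred, 0.97). There were 260 lncRNA genes above H19 in RC77 T/E against 499 in MDA PCa 2b. IGF2, expressed from the paternal chromosome under the same control region, was at 0.0278 TPM in MDA PCa 2b against 0.260 TPM in RC77 T/E, 9.35 times as high in the latter. Both IGF2 values were under 1 TPM, and the log2 ratio after adding 1 TPM was 0.29. MRPL23, a mitochondrial ribosomal protein gene 10644 bases away, was at 75.8 and 78.7 TPM, and MRPL23-AS1, between MRPL23 and H19, was listed at 0 in MDA PCa 2b and at 0.346 TPM in RC77 T/E. Of 12 genes analysed from the 11p15 imprinted domains and their borders, H19 included, 6 had a mean of at least 1 TPM. SLC22A18 was 6.21-fold higher in RC77 T/E and CDKN1C, a maternally expressed cell cycle inhibitor, was at 0.403 and 5.09 TPM. In the other direction, KCNQ1, whose mean was under 1 TPM, was at 1.97 TPM in MDA PCa 2b against 0.0116 TPM in RC77 T/E. TSSC4, with 2.01 times the TPM in MDA PCa 2b, had a log2 ratio of -0.97 at its lowest decimal position, short of 2-fold, and passed that limit only at its highest.

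A further list of 36 lncRNAs described in PCa was examined, of which 25 were analysed here and 13 had a mean of at least 1 TPM. Of these 13, 8 were higher in MDA PCa 2b against 5 in RC77 T/E, with 7 and 3 at least 2-fold apart at the lowest decimal positions and a median log2 ratio of -1.36 (centred, -1.21). The share of all 264 lncRNA genes past 2-fold was 25.4% and 21.2%, and their median log2 ratio was -0.30. But several of the 13, among them the 4 named next, reached the mean of 1 TPM through their higher line alone. Neither the counts nor the median of the 13 is therefore read against these values. CRNDE was at 19.2 TPM in MDA PCa 2b against 0.0324 TPM in RC77 T/E. PCAT18 was at 6.38, 63.8 or 638 TPM in MDA PCa 2b but listed at 0 in RC77 T/E, as PCA3 and SCHLAP1 were. LINC01116, at 0.0210 and 5.62 TPM, and MIR31HG, listed at 0 in MDA PCa 2b and at 4.84 or 48.4 TPM in RC77 T/E, were higher in RC77 T/E. HOTAIR was at 0.0123 TPM in MDA PCa 2b but listed at 0 in RC77 T/E.

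Widely expressed lncRNAs, many of them hosts of small nucleolar RNAs, gave a level beside which NEAT1 and MALAT1 can be read. Of 15 analysed, 13 were at 1 TPM or more in both lines. The median log2 ratio of these 13 was -0.45 (centred, -0.30), and before centring none was higher by 2-fold or more in RC77 T/E. ZFAS1, with a log2 ratio of 0.94, passes that limit when centred. SNHG1 was at 104 TPM in both lines and TUG1 at 32.7 and 33.0 TPM. SNHG8 was at 1628 TPM in MDA PCa 2b against 348 TPM in RC77 T/E, and DANCR was 8.26-fold higher in MDA PCa 2b. ZFAS1 was 1.99 times and SNHG12 1.24 times as high in RC77 T/E. MALAT1, at 3.28 times, lay above all 13 of these genes in its ratio, and NEAT1, at 1.81 times, was below ZFAS1.

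**Figure D4:**
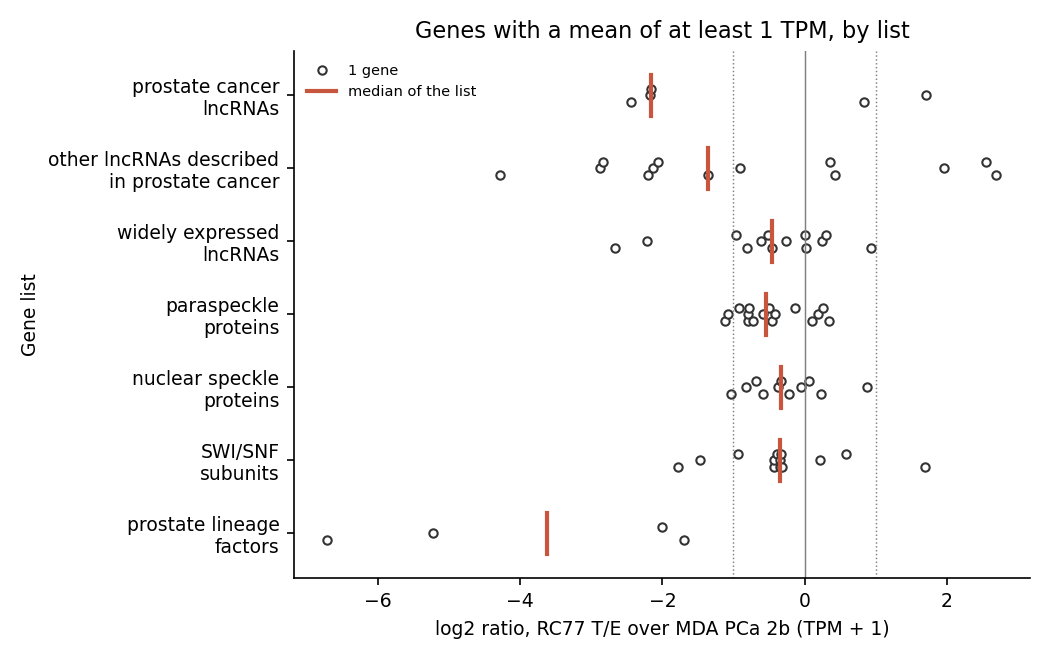
The log2 ratio of RC77 T/E over MDA PCa 2b (TPM + 1) of each gene with a mean of at least 1 TPM (open points), by gene list, with the median of each list as a red bar and dotted lines at a 2-fold difference. Open decimal marks are at their lowest position. The lists plotted are the prostate cancer lncRNAs, other lncRNAs described in prostate cancer, widely expressed lncRNAs, paraspeckle and nuclear speckle proteins, SWI/SNF subunits and prostate lineage factors. Among these 7 lists the medians run from -3.62 for the prostate lineage factors to -0.33 for the nuclear speckle proteins, with the prostate cancer lncRNAs split between PCA3, SCHLAP1 and PART1 on the left and NEAT1 and MALAT1 on the right. Some prostate cancer lncRNAs, other lncRNAs and lineage factors reached the mean of 1 TPM through 1 line alone. The medians of these lists are therefore not read against the others.

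RefSeq promoter windows (GRCh38.p14, from 250 bases before to 50 after a gene start) were at hand for 5 of the 9 lncRNAs. They are shown for the 4 of these above 0.5 TPM in either line, so that their base composition can be seen. The PCA3 window lies well inside the deposited PCA3 locus, because the RefSeq start used for it is not the start of that locus. Capitals mark matches to the motifs searched on both strands: the androgen response hexamer AGAACA, the full element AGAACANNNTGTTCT that contains it, the forkhead motif TGTTTAC, the TATA box TATAAA and the GC box GGGCGG. PCA3 and PART1, higher in MDA PCa 2b, are followed by MALAT1 and H19, higher in RC77 T/E.
PCA3, chr9:76764186-76764485, plus strand: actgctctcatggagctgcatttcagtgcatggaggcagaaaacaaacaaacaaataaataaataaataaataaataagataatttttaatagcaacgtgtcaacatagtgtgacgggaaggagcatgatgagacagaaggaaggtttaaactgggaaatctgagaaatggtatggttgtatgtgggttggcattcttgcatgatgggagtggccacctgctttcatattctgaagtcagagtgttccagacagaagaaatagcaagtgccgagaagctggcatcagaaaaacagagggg
PART1, chr5:60487682-60487981, plus strand: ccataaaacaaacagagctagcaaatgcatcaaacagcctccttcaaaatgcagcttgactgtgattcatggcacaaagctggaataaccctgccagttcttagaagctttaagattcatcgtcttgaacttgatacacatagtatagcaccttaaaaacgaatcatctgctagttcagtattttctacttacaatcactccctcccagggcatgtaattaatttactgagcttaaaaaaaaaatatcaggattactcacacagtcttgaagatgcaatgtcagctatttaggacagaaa
MALAT1, chr11:65497488-65497787, plus strand: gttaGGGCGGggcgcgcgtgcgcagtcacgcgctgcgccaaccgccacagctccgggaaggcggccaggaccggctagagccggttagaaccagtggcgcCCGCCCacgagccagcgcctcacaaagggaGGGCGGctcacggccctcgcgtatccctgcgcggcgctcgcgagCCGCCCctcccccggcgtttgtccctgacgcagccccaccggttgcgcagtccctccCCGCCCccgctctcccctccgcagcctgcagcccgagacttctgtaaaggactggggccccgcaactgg
H19, chr11:2001217-2001516, minus strand: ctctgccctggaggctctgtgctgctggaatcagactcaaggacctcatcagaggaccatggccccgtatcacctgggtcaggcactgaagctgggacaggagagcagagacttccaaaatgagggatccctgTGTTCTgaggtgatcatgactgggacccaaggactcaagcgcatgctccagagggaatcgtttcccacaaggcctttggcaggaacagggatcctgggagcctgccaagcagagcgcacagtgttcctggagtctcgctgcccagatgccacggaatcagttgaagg

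The windows of PCA3, PART1 and PCGEM1 were poor in G and C, and none was at hand for SCHLAP1 and PCAT1. The share of G and C was 40.7% for PCA3, 37.3% for PART1 and 38.0% for PCGEM1, beside a median of 58.7% over all 35116 windows, and it was 57.7% for H19. For MALAT1 it was 73.7% in the window shown and 46% in a second window, which starts further into the gene. The MALAT1 window held 5 GC boxes, a motif found in 45.0% of all windows, and the windows of PCA3, PART1, PCGEM1 and H19 held none. None of the windows held the full androgen response element, which occurs in 1 of the 35116, or the forkhead motif, found in 3.42%. The hexamer, found in 14.8% of all windows, occurred in those of H19 and PCGEM1 and in the second window of MALAT1, which also holds a TATA box (11.5% of all windows). These matches describe letters in short windows and say nothing of the binding of a factor, nor does their lack.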

How the data were processed

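Total RNA of the 2 untreated lines was isolated with TRIzol and made into paired-end directional libraries, 1 per cell line. Per the submitters' processing notes, CASAVA, FastQC 0.11.9, Trimmomatic 0.38, Salmon 1.2.0 and the build GRCh38 were used. The row identifiers have the form given by Cufflinks, and the annotation and the use of strand are not given in the sources used here. The authors deposited TPM per locus with the mean and standard error of both lines (22791 rows). All value columns were used. Read counts were not used here, so depth and precision are unknown.

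Values with commas (10361 rows for MDA PCa 2b, 11082 for RC77 T/E) had lost their decimal mark. Every position leaving 1 to 3 leading digits and no fewer than 3 decimals was tried and kept when the mean and standard error matched: 16284 rows had 1 position and 6507 had 2 or 3. On 5000 simulated rows, 3313 had 1 position, the true one in 3313. The simulated rows lost their marks by the same rule that the restoring assumes, so this shows only that the step works as written. Against the values the study itself gives for a part of the rows, 1315 of 1315 rows with 1 position were the same, and the lowest position was right in 77.2% of 683 others. The lowest position was used for ratios and counts. Repeated loci were used once (87 rows dropped), and loci of 1 symbol were summed.

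The log2 ratio used a pseudocount of 1 TPM, and a gene counted as present at 1 TPM. Named were the 9 lncRNAs, genes within 100 kb, the 2 list members with the largest ratio in each direction above 1 TPM, and the 3 lncRNA genes with the largest ratio in each direction. SFPQ, NONO, TAF15, SMARCB1, IGF2, FOXA1, GRHL2, HOTAIR, SNHG1, TUG1 and the prostate markers were named beyond this rule, after their values were seen. A few genes of the lists and neighbourhoods are not reported here, and the counts do not include them. The lncRNAs and lists were chosen with earlier results of these data known. Positions are those deposited (7 of 9 equal GENCODE 29). Alternatives concern threshold, pseudocount, centring, upper-quartile scaling, open decimal marks, low-value filter and summing of loci. The work was done in Python 3.11.15 (numpy 2.4.6, matplotlib 3.10.9).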

Additional observations from a re-analysis of the deposited data

How the results depend on the processing

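A threshold of 5 TPM left 2 of the 9 lncRNAs above it in MDA PCa 2b in place of 6, because PART1 and PCAT1, and at their lowest decimal positions PCA3 and SCHLAP1, are under it. With open marks at their highest position, a setting chosen after seeing the data, 4 were above 5 TPM. A threshold of 0.5 TPM left the 6 in MDA PCa 2b and raised the 2 of RC77 T/E to 3. When the pseudocount was 0.1 TPM, 2 lncRNAs in place of 1 were higher by 2-fold or more in RC77 T/E, the added one being H19 with a log2 ratio of 2.60. Centring on the median or scaling to the upper quartile left 3 in place of 4 higher in MDA PCa 2b, without PCAT1. Of 45 recomputed log2 ratios of single lncRNAs, 36 stayed within 1.5 times, 9 moved further and 0 of those past 2-fold changed sign. Most of the moves came with the pseudocount of 0.1 TPM, which widens ratios against values near 0. The background counts over all genes and over lncRNA genes stayed within 1.5 times under every setting run. No paired analysis was possible because a single library was made per line. The unknown depth limits every value near 0.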

Other observations

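Among the 264 lncRNA genes whose mean reached 1 TPM, DSCR8, CRNDE and ELFN1-AS1 had the lowest log2 ratios (RC77 T/E over MDA PCa 2b, open decimal marks at their lowest position). DSCR8 was at 19.7 or 197 TPM in MDA PCa 2b and ELFN1-AS1 at 13.6 or 136 TPM, and both were listed at 0 in RC77 T/E. The highest ratios were those of MIR100HG, a host transcript of microRNAs, CALML3-AS1 and LINC00958. MIR100HG was at 0.00763 TPM in MDA PCa 2b against 20.1 TPM in RC77 T/E, and CALML3-AS1 at 0.576 and 28.9 TPM. LINC00958 was listed at 0 in MDA PCa 2b and was at 9.48 TPM in RC77 T/E at its lowest decimal position and 948 TPM at its highest. SCHLAP1, PART1 and PCA3 had 14, 20 and 21 lncRNA genes below them in this order, and MALAT1 had 32 above it. Without replicates these orders carry no error.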
